A study of Chenopodium quinoa with 24 samples.

Results

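The transcripts described here are the quinoa copies of 10 Arabidopsis genes that move nitrate, reduce it to ammonium and build the ammonium into glutamine and glutamate. A transcript was a member when the best Arabidopsis match listed for it was one of these loci: NRT1.1 (AT1G12110), NRT1.5 (AT1G32450), NIA1 (AT1G77760), NIA2 (AT1G37130), NIR (AT2G15620), GLN2 (AT5G35630), GLN1;1 (AT5G37600), GLU1 (AT5G04140), GLT1 (AT5G53460) and GDH1 (AT5G18170). The rule found 28 transcripts of 44776 listed, of which 39937 had a match. NIA1 was the best match of 0 transcripts, so 9 of the 10 loci were represented. Of the 28 members, 24 were measured in all 6 fits described below. The 4 others, NRT1.1 copies AUR62044521-RA and AUR62044522-RA and NRT1.5 copies AUR62013653-RA and AUR62023344-RA, were measured in none.

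RNA came from mid-plant green leaves of 24 quinoa plants of the line QQ74 that were at anthesis when heating began. There were 3 plants in each of 8 groups, given by treatment and day. Shoots were warmed to 35 °C in HRS plants (heated roots and shoots) and HS plants (heated shoots), against 22 °C in HR (heated roots) and control plants. The root zone was warmed to 30 °C in HRS and HR plants, against 22 °C in HS and control plants. Leaves were taken in the morning of day 1 and of day 11 of the treatment. The seeds came from heterozygous parents, so the plants of a group were not genetically identical. HRS and HS plants stood in one growth chamber and HR and control plants in the other, with a separate box around the pots of every treatment. Shoot heating and chamber therefore cannot be told apart, nor can treatment and box.

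Plants take nitrate up and move it between organs with NRT1-type carriers. NRT1.1 is a plasma membrane carrier that also acts as a nitrate sensor in Arabidopsis roots, and NRT1.5 loads nitrate into the root xylem there. Nitrate reductase (NIA2) turns nitrate into nitrite in the cytosol, and its gene is known for a daily rhythm and for fast induction by nitrate and light. Nitrite reductase (NIR) turns nitrite into ammonium in the plastid. The plastid glutamine synthetase (GLN2) and ferredoxin-dependent glutamate synthase (GLU1) then fix that ammonium together with the ammonium set free in photorespiration. The cytosolic glutamine synthetase (GLN1;1), the NADH-dependent glutamate synthase (GLT1) and glutamate dehydrogenase (GDH1) serve mainly the recycling and transport of nitrogen.

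The values at hand were means over the 6 plants of a fit, that is the 3 plants of a treatment and the 3 control plants of the same day, on the natural log (ln) scale of normalized estimated counts. The difference between a pair of treatments on a day was rebuilt from 2 such means, in which the control plants cancel, and was centred on the median of all transcripts because the fits had been scaled separately. A difference of a treatment from control was not analysed here, and single plants could not be shown. Each difference is given on the ln scale with its standard error (SE), and an adjusted p is the limma p-value (two-sided) after Benjamini-Hochberg adjustment over all transcripts of a test, with a threshold of 0.05. In bulk leaf RNA, fewer cells of a type and less RNA per cell cannot be told apart.

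The labelled tissue was checked with marker genes. All 13 transcripts that matched the leaf mesophyll markers RBCS1A, RCA and LHCB4.1 were measured, with pooled levels between the 89.4th and the 100th percentile of all transcripts (GAPA and PSBO1 had no match). None of the 12 transcripts that matched root hair markers was measured. Of 9 that matched flower markers, 5 were measured, no higher than the 21.8th percentile.

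On day 1, NIA2 was much lower in HRS and HS plants than in HR plants. The 2 NIA2 copies had pooled levels (geometric mean of normalized estimated counts) of 169 and 279 over HRS and control plants and of 173 and 248 over HS and control plants, against 638 and 773 over HR and control plants. The HR means thus lay above both others for both copies, as the plot of pooled levels shows. AUR62004699-RA was 14.8-fold lower in HRS than in HR (difference -2.69 ± 0.33, limma adjusted p = 0.00043, n = 3 plants a group). AUR62023616-RA was 7.89-fold lower (-2.07 ± 0.32, limma adjusted p = 0.00159). These differences exceeded the spread between plants within groups, averaged over the 3 fits of the day (SD of 0.515 and 0.504 on the ln scale). Control plants enter each fit and weigh most in this average, and the spread of HRS or HR plants alone could not be given. The SDs below and the SEs of differences between treatments rest on such averages. In HS against HR the same copies were 15.6-fold and 11.1-fold lower (-2.75 ± 0.33 and -2.40 ± 0.32, limma adjusted p = 0.00031 and 0.00059). HRS and HS plants did not differ detectably in NIA2 on day 1, with 95% intervals of the difference from -0.68 to 0.78 and from -0.38 to 1.05. The comparisons of HRS and of HS with HR share the HR plants of day 1 and are not independent. HS and HR plants also differ in root temperature. Control plants, the other group with cool shoots, were not compared. Whether NIA2 was low under heated shoots or high in HR plants was not tested.

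**Figure D1:**
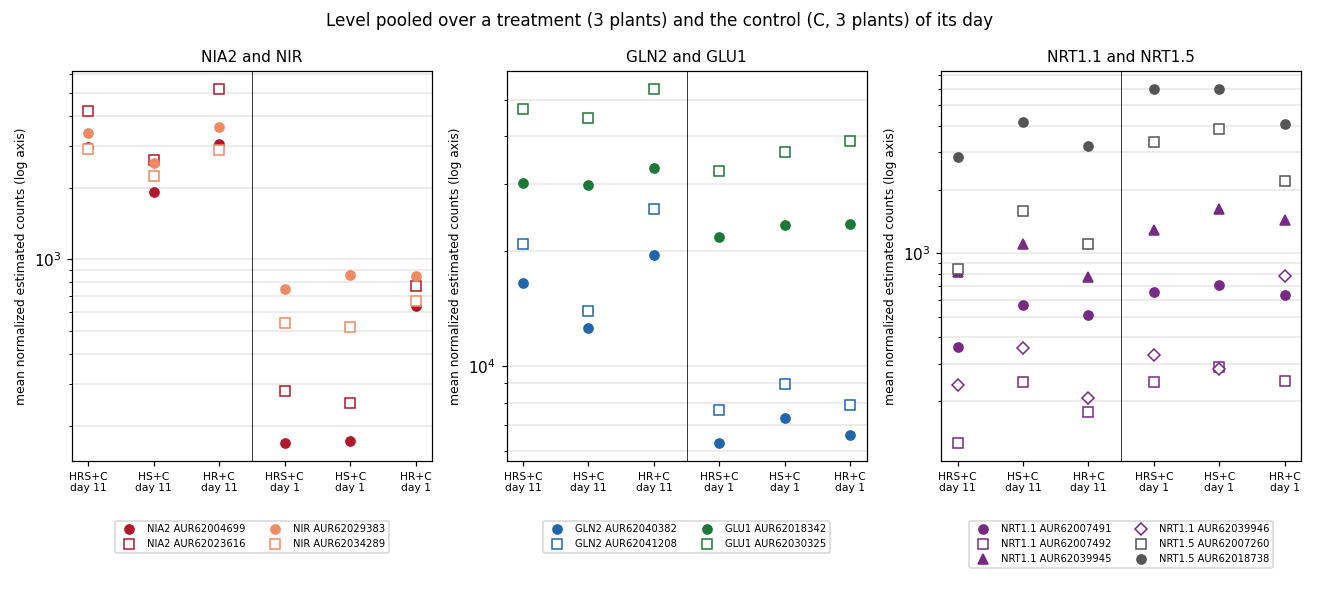
Pooled level of each copy of NIA2, NIR, GLN2, GLU1 and NRT1.1 and of the 2 most abundant NRT1.5 copies, as the geometric mean of normalized estimated counts (log axis) over the 3 plants of a treatment and the 3 control plants (C) of its day, with day 11 left of day 1. The NIA2 points of day 1 sit at 169 to 279 in the HRS and HS fits, below 638 and 773 in the HR fit, and the GLN2 points of day 11 are lowest in the HS fit (12560 and 13950). Fits were scaled separately and levels are not corrected for transcript length.

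On day 11 neither NIA2 copy passed between HRS and HR plants. The differences were 0.06 ± 0.37 and -0.33 ± 0.36, with 95% intervals from -0.77 to 0.89 and from -1.14 to 0.48. For AUR62004699-RA the change of the HRS to HR difference from day 1 passed the test (2.75 ± 0.55, limma adjusted p = 0.0109), and for AUR62023616-RA it was 1.74 ± 0.54 (limma adjusted p = 0.0873). Both copies were lower in HS than in HR plants on day 11, with differences of -1.15 ± 0.37 and -1.61 ± 0.36 (limma adjusted p = 0.0493 and 0.0118). Correspondingly both copies were higher in HRS than in HS leaves, 3.37-fold and 3.64-fold (1.21 ± 0.37 and 1.29 ± 0.36, limma adjusted p = 0.0476 and 0.0345). These comparisons share the HS plants of day 11 and are not independent. The calls for HRS against HS were lost when differences were scaled to summed abundance (0.87 and 0.95, limma adjusted p = 0.0857 and 0.0605). That scaling summed the pooled levels of each fit, in which the control plants do not cancel. The calls were also lost with the largest SE that the fits allow (limma adjusted p = 0.276 and 0.238). It is the largest before limma draws it toward that of transcripts of similar abundance. That SE also ended the HS against HR calls of day 11 (limma adjusted p = 0.161 and 0.0613) and the change of AUR62004699-RA (0.199), and the HS against HR call of AUR62004699-RA ended with summed abundance too (-0.73, limma adjusted p = 0.125). Without a trend over abundance, both HRS against HS calls were lost (limma adjusted p = 0.0928 and 0.0727), and so was the HS against HR call of AUR62004699-RA (0.0885). The z test ended the HRS against HS and HS against HR calls of AUR62004699-RA (adjusted p = 0.0519 and 0.0575).

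**Figure D2:**
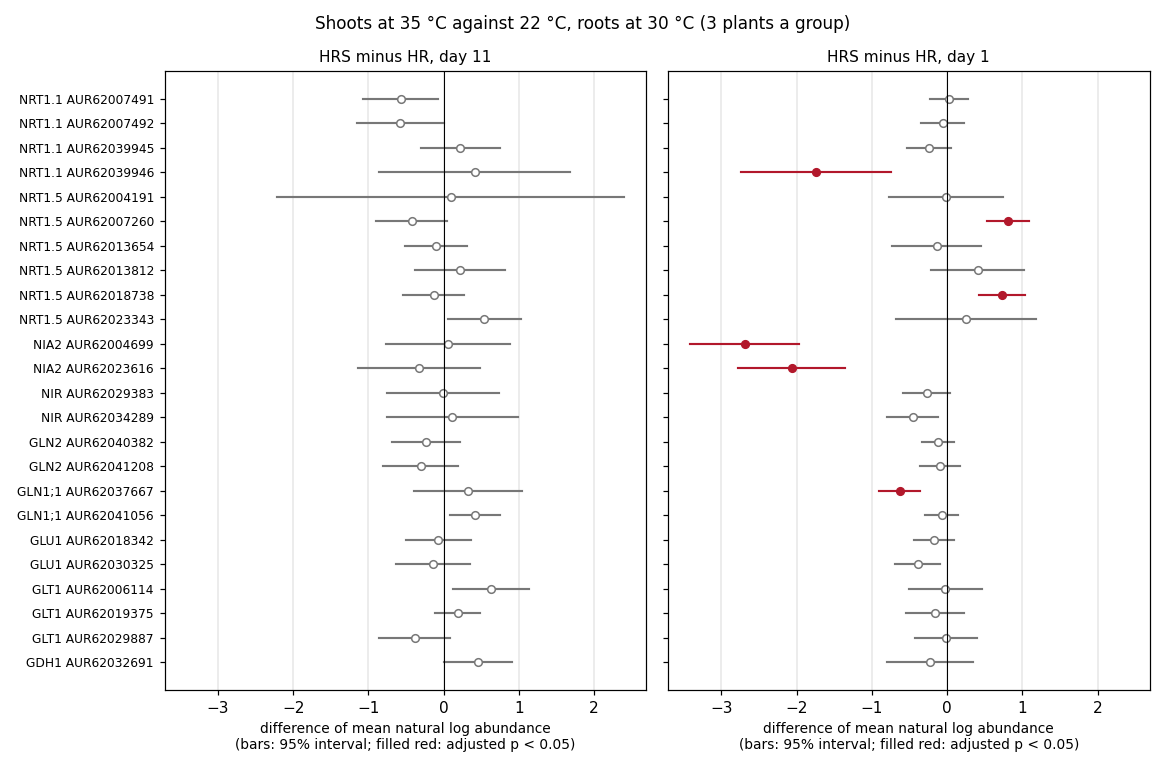
HRS minus HR difference of each of the 24 measured copies on day 11 (left) and day 1 (right), on the ln scale. Points are differences, bars are 95% intervals and filled red points have a limma adjusted p under 0.05: on day 1 the NIA2 copies lie at -2.69 and -2.07 and 2 NRT1.5 copies at 0.81 and 0.73, and on day 11 no point is red.

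NIR, the next enzyme, showed smaller differences. Copy AUR62034289-RA was 1.88-fold lower in HS than in HR plants on day 1 (-0.63 ± 0.15, limma adjusted p = 0.0152, and 0.126 with the largest SE allowed) and had a difference of -0.46 ± 0.15 between HRS and HR plants (limma adjusted p = 0.0589). Copy AUR62029383-RA differed by -0.12 ± 0.14 between HS and HR and by -0.27 ± 0.14 between HRS and HR plants, with neither past the threshold. On day 11 the HRS minus HS differences of the 2 copies were 0.92 ± 0.33 and 0.86 ± 0.38 (limma adjusted p = 0.0831 for AUR62029383-RA and 0.153 for AUR62034289-RA). These did not pass, although they point the same way as those of NIA2. The SD between plants of a group was 0.510 and 0.604 on day 11, and 0.206 and 0.227 on day 1.

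GLN2 differed between treatments on day 11. Its copies had pooled levels of 16510 and 20930 over HRS and control plants, 12560 and 13950 over HS and control plants, and 19570 and 25780 over HR and control plants, so both were lowest in the HS fit. AUR62040382-RA was 2.44-fold higher in HRS than in HS (0.89 ± 0.20, limma adjusted p = 0.0151), and AUR62041208-RA 3.18-fold higher (1.16 ± 0.22, limma adjusted p = 0.00777). Against HR plants, HS plants had 3.05-fold and 4.29-fold less (-1.12 ± 0.20 and -1.46 ± 0.22, limma adjusted p = 0.00477 and 0.00223). Both sets of calls rest on the HS plants of day 11 and are not independent. In the paper's read statistics, the HS libraries of day 11 had the lowest shares of pseudoaligned and of unique reads of that day. The part of this in the day 11 comparisons with HS was not tested. HRS and HR plants did not differ detectably (-0.23 ± 0.20 and -0.31 ± 0.22). On day 1 the HRS minus HS differences were -0.20 ± 0.10 and -0.22 ± 0.12, and the change between days passed for both copies, at 1.1 ± 0.22 and 1.38 ± 0.25 (limma adjusted p = 0.00461 and 0.0029). With the largest SE allowed, the HRS against HS calls of day 11 and the changes between days were lost (limma adjusted p between 0.146 and 0.215), and so was the HS against HR call of AUR62040382-RA (0.0731). Scaling to summed abundance ended the HRS against HS call of AUR62040382-RA (0.55, limma adjusted p = 0.0546) and left AUR62041208-RA at 0.81 (limma adjusted p = 0.0178).

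The mesophyll markers differed in the same day 11 comparisons as GLN2 and NIA2. Most of the 13 marker transcripts were copies of 1 gene, RBCS1A, so they are not 13 separate readings of the mesophyll. Of the 13, 12 were higher in HRS than in HS leaves on day 11 (median difference 1.74), against 10.8% of all transcripts. In HS against HR leaves of day 11, 12 of 13 were lower (median -1.83), against 13.2% of all. Between days the HRS minus HS difference rose for 12 of 13 (median 2.00), against 8.16% of all. On day 1, where NIA2 had its largest differences, 3 of 13 were lower and 0 higher in HRS than in HR leaves (median 0.04), and 3 were higher and 2 lower in HS than in HR leaves (median 0.19). Of all transcripts, 11.1% were higher and 9.91% lower in the first comparison, and 10.8% and 10.1% in the second. The part of the markers in the GLN2 and NIA2 results was not tested.

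**Figure D3:**
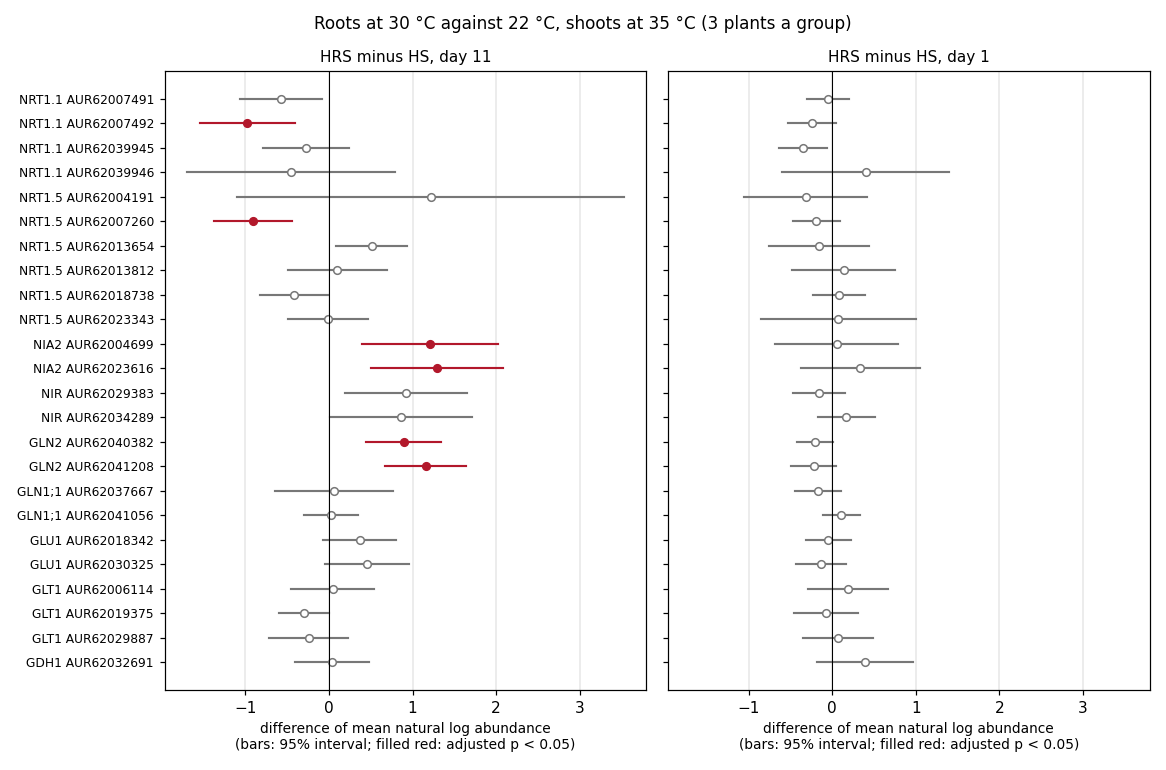
HRS minus HS difference of each of the 24 measured copies on day 11 (left) and day 1 (right), on the ln scale. Points are differences, bars are 95% intervals and filled red points have a limma adjusted p under 0.05: no point is red on day 1, and on day 11 the copies of NIA2 (1.21 and 1.29) and GLN2 (0.89 and 1.16) lie to the right of 0 and 1 copy each of NRT1.1 (-0.98) and NRT1.5 (-0.91) to the left.

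Of the other assimilation enzymes, 1 copy of GLN1;1 and 1 of GLT1 passed between treatments. GLN1;1 copy AUR62037667-RA was 1.88-fold lower in HRS and 1.60-fold lower in HS than in HR plants on day 1 (-0.63 ± 0.12 and -0.47 ± 0.12, limma adjusted p = 0.00545 and 0.0219, and 0.0561 and 0.178 with the largest SE allowed). Its other copy, AUR62041056-RA, passed none of the 9 main tests. Its HS minus HR difference of day 11 passed by the z test (0.40, adjusted p = 0.0415) and with summed abundance (0.82, limma adjusted p = 0.00208). The 2 GLU1 copies were among the most abundant transcripts (between the 99.8th and 99.9th percentile in every fit) and passed in no comparison of treatments in the main test. Their largest difference between treatments on a day was that of AUR62030325-RA between HS and HR on day 11 (-0.58 ± 0.23, limma adjusted p = 0.0906). It passed by the z test (adjusted p = 0.0122) and without a trend over abundance (limma adjusted p = 0.0439), as did its HRS minus HR difference on day 1 (-0.39, adjusted p = 0.0286 by the z test and 0.0352 by limma without a trend). Of 3 GLT1 copies, AUR62019375-RA was 1.64-fold higher in HS than in HR plants on day 11 (0.49 ± 0.13, limma adjusted p = 0.0255, and 0.19 with the largest SE allowed), the opposite direction to GLN2 in that comparison. Scaled to summed abundance it was at 0.91 (limma adjusted p = 9.8e-04), and its HRS minus HS difference of day 11 then passed too (-0.64, limma adjusted p = 0.00689). The most abundant of the other GLT1 copies, AUR62006114-RA, differed in HS against HR by 0.59 ± 0.22 (limma adjusted p = 0.084), and by 1.01 with summed abundance (limma adjusted p = 0.00531). The only GDH1 copy, AUR62032691-RA, passed no main test. Its HS minus HR difference was 0.43 ± 0.20 on day 11 (limma adjusted p = 0.148, and 0.00714 at 0.85 with summed abundance) and -0.63 ± 0.26 on day 1 (limma adjusted p = 0.116).

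Among the carriers, the copies that passed on day 1 were 2 of NRT1.5 and 1 of NRT1.1, in different directions. The 2 abundant NRT1.5 copies were higher in HRS and HS plants than in HR plants, which both comparisons share. AUR62007260-RA had pooled levels of 3351 over HRS and control plants and 3869 over HS and control plants, against 2200 over HR and control plants. It was 2.25-fold higher in HRS and 2.71-fold higher in HS than in HR plants (0.81 ± 0.13 and 1.00 ± 0.13, limma adjusted p = 0.00166 and 0.00046). AUR62018738-RA was 2.08-fold and 1.91-fold higher (0.73 ± 0.14 and 0.65 ± 0.14, limma adjusted p = 0.00453 and 0.00791), the second of which was lost with the largest SE allowed (0.0734). NRT1.1 copy AUR62039946-RA was 5.72-fold lower in HRS and 8.58-fold lower in HS than in HR plants (-1.74 ± 0.45 and -2.15 ± 0.45, limma adjusted p = 0.0209 and 0.00728), the first of which was lost with that SE (0.0858). The other 3 measured NRT1.1 copies had HRS minus HR differences from -0.24 to 0.03 and did not pass. Those of the other measured NRT1.5 copies lay between -0.14 and 0.41 and did not pass either. AUR62039946-RA was also the most variable NRT1.1 copy, with an SD between plants of a group of 0.718 on day 1, against 0.157 to 0.190 in the others.

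On day 11 the NRT1.5 copy AUR62007260-RA was lower in HRS than in HS plants by 2.49-fold (-0.91 ± 0.21, limma adjusted p = 0.0166), and its HRS minus HR difference was -0.42 ± 0.21 (limma adjusted p = 0.324). The change of the HRS minus HR difference from day 1 was -1.24 ± 0.27 (limma adjusted p = 0.0158), and that of AUR62018738-RA was -0.87 ± 0.24 (limma adjusted p = 0.0578, and 0.0253 by the z test). NRT1.1 copy AUR62007492-RA was 2.66-fold lower in HRS than in HS plants on day 11 (-0.98 ± 0.26, limma adjusted p = 0.0277). The HRS minus HS calls of AUR62007260-RA and AUR62007492-RA and the change of AUR62007260-RA were lost with the largest SE allowed (limma adjusted p = 0.168, 0.242 and 0.299). A weakly expressed NRT1.5 copy, AUR62013654-RA, was 1.83-fold lower in HS than in HR plants on day 11 (-0.60 ± 0.19, limma adjusted p = 0.0458), and was at -0.19 (limma adjusted p = 0.435) when scaled to summed abundance. With that scaling, AUR62018738-RA (-0.76) and NRT1.1 copy AUR62007491-RA (-0.92) were also lower in HRS than in HS plants (limma adjusted p = 0.0111 and 0.0117). The same scaling made NRT1.5 copies AUR62007260-RA (0.91) and AUR62018738-RA (0.71) and NRT1.1 copies AUR62007492-RA (0.82) and AUR62039945-RA (0.92) higher in HS than in HR plants (limma adjusted p between 0.00639 and 0.0233). The remaining 3 measured NRT1.5 copies, AUR62004191-RA, AUR62013812-RA and AUR62023343-RA, passed no main test, though AUR62023343-RA was higher in HS than in HR plants on day 11 with summed abundance (0.98, limma adjusted p = 0.0055). Their pooled levels lay between 5.75 and 133 normalized estimated counts, and AUR62004191-RA had the largest SE of the 24 members within a day (1.06).

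Between the days, the copies of NIA2, NIR, GLN2 and GLU1 were higher on day 11 in plants with cool shoots, while those of GLN1;1 (0.05 and -0.03) and GDH1 (0.09) did not pass. This comparison used the 6 plants a day (HR and control) whose shoots were kept at 22 °C. The NIA2 copies were 4.96-fold and 7.03-fold higher on day 11 (1.60 ± 0.28 and 1.95 ± 0.21, limma adjusted p = 0.00064 and 2.1e-05). The NIR copies were 4.41-fold and 4.49-fold higher (1.48 ± 0.19 and 1.5 ± 0.23, limma adjusted p = 6.9e-05 and 0.00029). These 4 transcripts are 2 copies each of NIA2 and NIR read in the same plants, so they are not 4 separate readings. Of all transcripts, 21.5% were higher in this test. The GLN2 copies were 3.09-fold and 3.39-fold higher (1.13 ± 0.10 and 1.22 ± 0.11, limma adjusted p = 3.4e-06 and 4.7e-06). The GLU1 copies differed less, at 1.46-fold and 1.43-fold (0.38 ± 0.10 and 0.36 ± 0.12, limma adjusted p = 0.01 and 0.0273), and lost the call when scaled to summed abundance (0.14 and 0.12) and with the larger variance of the days (limma adjusted p = 0.0711 and 0.135).

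Lower on day 11 were 3 of 4 measured NRT1.1 copies, 1 of 6 NRT1.5 copies and 1 of 3 GLT1 copies. They were 5 of the 24 measured members, close to the share of all transcripts that were lower (17.6%). NRT1.5 copy AUR62007260-RA was 1.92-fold lower on day 11 (-0.65 ± 0.11, limma adjusted p = 0.00069). NRT1.1 copies AUR62007491-RA, AUR62039945-RA and AUR62039946-RA were 1.21-fold, 1.79-fold and 3.65-fold lower (-0.19 ± 0.07, -0.58 ± 0.11 and -1.29 ± 0.33). Their limma adjusted p-values were 0.0379, 0.00101 and 0.00803, the first rising to 0.158 with the larger variance. GLT1 copy AUR62019375-RA was 1.87-fold lower (-0.62 ± 0.12, limma adjusted p = 0.0012). The other GLT1 copies (0.13 and -0.05) and NRT1.5 copies (-0.20 to 0.49) did not pass. Scaled to summed abundance, NRT1.1 copy AUR62007492-RA (-0.53), NRT1.5 copy AUR62018738-RA (-0.43) and GLN1;1 copy AUR62041056-RA (-0.27) passed as well. Of the mesophyll marker transcripts, mostly RBCS1A copies, 13 of 13 were higher on day 11 (median 1.29), against 21.5% of all transcripts. Their part in these results was not tested. Day cannot be told apart from plant age.

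**Figure D4:**
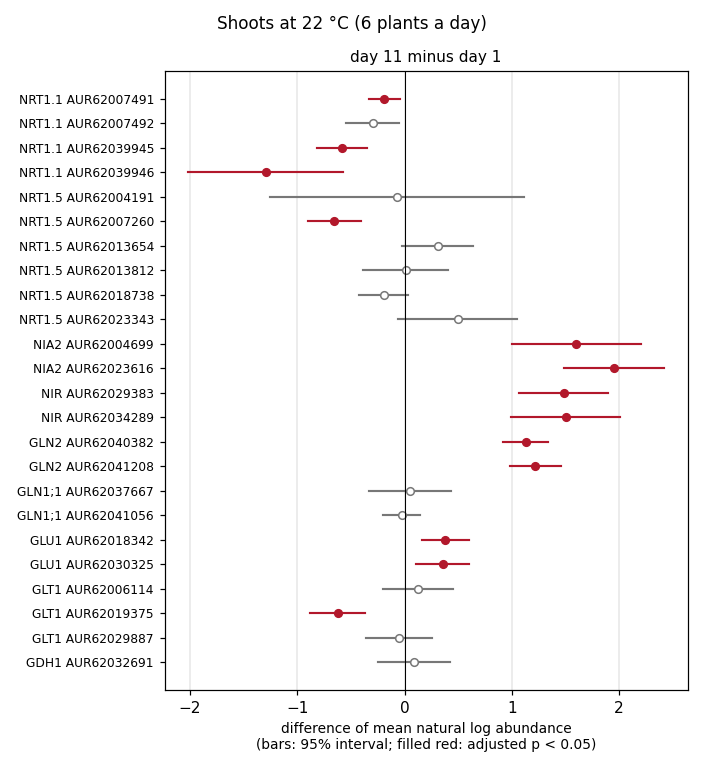
Day 11 minus day 1 difference of each of the 24 measured copies in plants with shoots at 22 °C (HR and control, 6 plants a day), on the ln scale. Points are differences, bars are 95% intervals and filled red points have a limma adjusted p under 0.05: the copies of NIA2, NIR, GLN2 and GLU1 lie right of 0 (0.36 to 1.95), and 3 NRT1.1 copies, 1 NRT1.5 copy and 1 GLT1 copy lie left of it.

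Counted over the 24 measured members, the tests gave the following. In HRS against HR on day 1, 6 members passed, 2 higher and 4 lower, where 21% of 29794 transcripts passed (11.1% higher and 9.91% lower). The median member difference was -0.13, that of all transcripts 0.00 by the centring. The member share was thus close to the background. In HS against HR on day 1, 7 passed, 2 higher and 5 lower, against 20.9% of all transcripts (10.8% higher and 10.1% lower), with a median of -0.09. In HRS against HR on day 11, limma called 0 members, 6 had an unadjusted p under 0.05, and the z test with shrunken variances also called 0, where 1.85% of all transcripts passed. In HRS against HS on day 1, limma called 0 members and the z test 0, 1 had an unadjusted p under 0.05, and 0.00333% of all transcripts passed.

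On day 11, HRS against HS gave 6 members, 4 higher and 2 lower, against 16.2% of all transcripts (10.8% higher and 5.41% lower), with a median member difference of 0.05. HS against HR gave 6, 1 higher and 5 lower, against 22.3% (9.16% higher and 13.2% lower), with a median of 0.07. The change of HRS against HR between days passed for 2 members, 1 higher and 1 lower, against 3.69% (0.973% higher and 2.71% lower), and that of HRS against HS for 2, both higher, against 12.4% (8.16% higher and 4.28% lower). The member medians were 0.25 and 0.02. Day 11 against day 1 under cool shoots gave 13, 8 higher and 5 lower, against 39.1% (21.5% higher and 17.6% lower), with a median of 0.07. The median over all transcripts was between -0.01 and 0.00 in each of the 9 tests, which follows from centring the differences on it.

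The split of calls into higher and lower depended on the scaling in several tests. Of all calls, 66.5% were higher in HRS than in HS on day 11, and 13.5% when scaled to summed abundance. The corresponding shares were 41% and 87.1% for HS against HR on day 11, 32.6% and 54.2% for HRS against HR on day 11, and 55% and 23.3% for day 11 against day 1. They were 26.4% and 37.8% for the change of HRS against HR, and 65.6% and 11.5% for the change of HRS against HS. Among members, summed abundance gave 1 higher and 5 lower in HRS against HS on day 11, 9 higher and 3 lower in HS against HR on day 11, 2 higher and 4 lower in the change of HRS against HS, and 6 higher and 8 lower between days. No member call changed its sign under these alternatives.

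Other genes of nitrogen metabolism were counted in 6 lists. Of 9 measured ammonium carrier transcripts on day 1, 5 were lower and 0 higher in HRS than in HR (median -0.79), where 9.91% of all transcripts were lower, and 5 were lower and 0 higher in HS than in HR (median -0.80), where 10.1% of all were lower. The other 4 did not pass. The largest differences were those of AMT1;1 copy AUR62006988-RA, at -3.18 ± 0.48 in HRS and -3.54 ± 0.49 in HS against HR (limma adjusted p = 0.00137 and 0.00074). Of the assimilation isoforms, 2 of 3 were lower in HRS and 2 of 3 in HS than in HR on day 1, namely GLN1;3 copy AUR62015229-RA (-0.54 ± 0.12 in HRS) and GDH3 copy AUR62032053-RA (-0.60 ± 0.14 in HRS). UPM1 makes a precursor of siroheme, the cofactor of nitrite reductase. Its copies AUR62034961-RA and AUR62035771-RA were lower in HRS than in HR on day 1 (-0.53 ± 0.10 and -0.48 ± 0.15), the only 2 of 20 transcripts of cofactors and carbon supply to pass, where 21% of all transcripts did. Of 22 other nitrate carrier transcripts, 2 were higher and 3 lower there, close to that share, among them NRT1.2 copy AUR62021743-RA (0.91 ± 0.24) and NRT1.11 copy AUR62009301-RA (-1.33 ± 0.23).

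On day 11, the enzymes that pass amino groups on were mostly higher in HRS than in HS leaves, with 6 higher and 1 lower of 10 (median 0.71), where 10.8% of all transcripts were higher and 5.41% lower. The aspartate aminotransferase ASP1 copy AUR62040441-RA was at 1.09 ± 0.14 and the asparagine synthetase ASN3 copy AUR62003792-RA at 0.92 ± 0.14 (limma adjusted p = 0.00369 and 0.00392), while ASP3 copy AUR62023011-RA was at -1.73 ± 0.34. Between days the HRS minus HS difference of this list changed for 8 of 10, 7 higher and 1 lower, against 12.4% of all transcripts. DiT2.1, the plastid glutamate and malate exchanger, was higher in HRS than in HS in 3 copies, the 3 called of 20 in its list (16.2% of all transcripts passed), and copy AUR62013164-RA was at 2.27 ± 0.51 (limma adjusted p = 0.0152). NRT1.4, a nitrate carrier of the leaf petiole in Arabidopsis, was higher in both called copies (2.24 ± 0.29 for AUR62013368-RA), and of the 22 transcripts of its list 2 were higher and 1 lower. LBD38, a repressor of nitrate-responsive genes in Arabidopsis, accounted for both called regulators of 10 (2.05 ± 0.38 for AUR62040260-RA). In HS against HR on day 11 the counts were 2 higher and 5 lower of 10 for amino group transfer, 0 and 5 of 20 for cofactors and carbon supply, 1 and 2 of 22 for nitrate carriers, and 3 and 1 of 10 for regulators, where 9.16% of all transcripts were higher and 13.2% lower.

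Between days under cool shoots, all 10 transcripts of amino group transfer passed, 8 higher and 2 lower on day 11, with a median of 0.61, where 39.1% of all transcripts passed (21.5% higher and 17.6% lower). Cofactors and carbon supply had 7 higher and 0 lower of 20, fewer in all than that share, with UPM1 at 1.29 ± 0.20 and 1.47 ± 0.26. Other nitrate carriers had 3 higher and 9 lower of 21, the largest being NRT1.4 copy AUR62013368-RA at 3.20 ± 0.27. Regulators had 4 higher and 2 lower of 10, and LBD38 copy AUR62040260-RA was at 3.25 ± 0.23. Ammonium carriers had 2 higher and 3 lower of 8, and AMT1;2 copy AUR62006987-RA was at -1.87 ± 0.30.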

How the data were processed

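RNA-seq libraries of leaves of 24 plants (3 in each of 8 groups, from the labels) were analysed. Reads were trimmed with trimmomatic, pseudoaligned and counted per transcript with kallisto, and compared with sleuth 0.30.0 by the authors. The authors' deposited table holds, for each of 6 fits of a treatment with the control of its day, the mean natural log (ln) of normalized estimated counts (with 0.5 added) over 6 plants and the residual and technical variances. The columns of the authors' own comparisons (effect sizes, their errors, p-values and q-values) were not used. The number of columns of single plants was 0, so depth per plant was not analysed here and its precision enters only through the variances, and 0 columns of other samples were left out. How kallisto shared reads between near-identical copies could affect the values of paralogous copies. Exactly the same pooled means as another transcript were found for 0 members, a check that does not measure shared reads. Symbols are those of the Arabidopsis match, and the reference gene table listed none of the identifiers, so no sequences are shown.

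Differences between treated groups of a day were computed from the pooled means and centred on the median of all transcripts, on the assumption that the 3 fits of a day used the same control plants. The fits were scaled separately. The spread was the mean residual variance of the 3 fits of a day (6 degrees of freedom, 12 between days, 8 for day 11 against day 1), moderated with limma 3.58.1 in R 4.3.3 with a trend over abundance. Adjustment followed Benjamini and Hochberg over all transcripts of a test. Replicates were separate plants. The tests were tested on simulated data of 28719 transcripts, with the same spread in every group, shared control plants and no separate scaling of fits. The simulated rates hold for that setting only. Of 200 changed 3-fold, 64.0% were recovered in HRS against HR and 64.5% in HRS against HS on day 1, and 59.0% and 62.5% on day 11, with 0.8% to 3.8% false calls. The changes between days recovered 51.9% (HRS against HR) and 51.4% (HRS against HS) of 399 changed transcripts, with 5.9% and 5.1% false calls. HS against HR and day 11 against day 1 were simulated with 0 changed transcripts, so their recovery was not measured. Alternatives were the largest SE allowed by the variances, a z test with shrunken variances, no trend, scaling to summed abundance, a minimum of 10 normalized counts, and a threshold of 0.01. The largest SE was moderated with limma like the main one, so it is not an upper bound for every transcript. Summed abundance was that of the pooled levels of a fit, control plants included. Members and lists were chosen with earlier results of these data known. Named by rule were members with an adjusted p under 0.05 in any test, the most abundant copy of each locus and, for each other list and test, up to 4 passing transcripts with the largest differences. Copies named as unmeasured or as passing no test were added after their values were seen. Tables and plots were made with pandas 2.3.3, numpy 2.4.6 and matplotlib 3.10.9 (Python 3.11.15).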

Additional observations from a re-analysis of the deposited data

Results flagged for a closer look

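A difference between treatments that itself differed between the days was found for 4 transcripts. For HRS against HR these were 2 of 24 measured members, where 3.69% of all transcripts passed. For HRS against HS they were 2 of 24, where 12.4% of all passed. For the NIA2 copy AUR62004699-RA, the HRS minus HR difference on day 11 exceeded that on day 1 by 2.75 (SE 0.55, limma adjusted p = 0.0109). For the NRT1.5 copy AUR62007260-RA it changed by -1.24 (SE 0.27, limma adjusted p = 0.0158). The HRS minus HS difference of the GLN2 copies AUR62040382-RA and AUR62041208-RA changed by 1.1 and 1.38 (SE 0.22 and 0.25, limma adjusted p = 0.00461 and 0.0029). None of these 4 passed with the largest SE that the fits allow. In simulated data with changed transcripts, 5.9% (HRS against HR) and 5.1% (HRS against HS) of the calls of these tests were false. The simulation gave a transcript the same spread in every group and did not scale fits separately. It therefore gives no error rate for these 4 calls.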

How the results depend on the processing

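No named member result that passed in either setting changed its direction. Of the 42 member results that passed, 23 were lost with the largest SE allowed, 17 at an adjusted p of 0.01, 8 without a trend, 7 when scaled to summed abundance, 2 with a z test and 0 with the minimum of 10 counts. Among members named by rule, 15, 4 and 2 were gained with summed abundance, the z test and no trend. Copies AUR62023343-RA and AUR62041056-RA, not named by that rule, also gained calls with summed abundance, and AUR62041056-RA by the z test. With the largest SE, the members called were 0 for HRS against HS on day 11, 4 for HS against HR on day 1, 1 on day 11, and 0 for both changes between days. At a threshold of 0.01, HRS against HS on day 11 gave 1, HS against HR on day 11 gave 2 and the change of HRS against HR gave 0. Without a trend HRS against HS on day 11 gave 3. Scaled to summed abundance, HS against HR on day 11 gave 12 and the change of HRS against HS gave 6. That scaling moved the median of all transcripts (log2) by -0.50, 0.60 and 0.11 for HRS against HS, HS against HR and HRS against HR on day 11, -0.54 for the change of HRS against HS and -0.34 between days. The cause was not tested.

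Counts over all transcripts that moved by more than 1.5 times were as follows. HRS against HR went to 1762 with the largest SE and 2983 at 0.01, against 6262, on day 1. On day 11 it gave 0, 0, 1602 (z test), 146 (no trend) and 229 (minimum counts), against 553. HRS against HS on day 1 gave 186 by the z test and 0 in 3 settings (largest SE, 0.01, minimum counts), against 1. On day 11 it gave 0, 1578 and 10962 (summed abundance), against 4841. HS against HR gave 1800 and 3221 against 6251 on day 1, and 1007, 2539 and 14382 against 6698 on day 11. The change of HRS against HR gave 115 and 304 against 1065, and that of HRS against HS 0, 1175 and 8951 against 3608. Day 11 against day 1 gave 7657 at 0.01 against 11515. Leaving out single plants was not run, since single plants were not analysed here. No paired analysis was possible because plant numbers were not shared between groups and only pooled means were used.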
